A study of Mus musculus with 4 samples.

Results

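The genes described here are 9 components of the NF-kB pathway: the subunit genes Nfkb1, Nfkb2, Rel, Rela and Relb, the inhibitor genes Nfkbia, Nfkbiz and Tnfaip3, and the kinase gene Ikbkb. The rule takes them by gene name and role and uses no measured value, although it was drawn up with earlier results of these data known, and all 9 of them were found among the 21044 genes measured. RNA was sequenced from microglia of the corpus callosum, a white matter tract, in mice at postnatal day 7, in 4 libraries. The cKO group holds 2 libraries of Lag3cKO-Cx3 mice, in which the inhibitory immune receptor gene Lag3 is deleted, and their genotype label is ko. The WT group holds 2 libraries of Lag3fl/fl mice, which carry the floxed Lag3 alleles and are labelled wt. No driver of deletion is named for these mice, so the driver and the loss of Lag3 cannot be told apart as sources of differences. The form of the driver that deletes Lag3, the way the microglia were isolated and the number of animals behind a library are not given in the sources used here, so each p-value reflects the spread among the libraries at hand, which may be technical.

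NF-kB is a family of transcription factors built as dimers of the subunits. In resting cells inhibitors of the IkB family hold the dimers in the cytoplasm. Toll-like receptors and the receptors of TNF and IL-1 activate the IKK complex, which marks these inhibitors for degradation and so frees the dimers to enter the nucleus. Among the first genes they switch on are inhibitors of the pathway, Nfkbia and Tnfaip3, which closes a feedback loop. In microglia the pathway is best known for driving cytokine and chemokine genes after injury or infection.

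Several of these genes are known targets of NF-kB, so their promoter sequences are shown first. RefSeq start sites (GRCm38.p6) were at hand for Nfkb2, Nfkbia, Rel, Rela and Tnfaip3, with 8 start sites in all, and not for Nfkb1, Relb, Nfkbiz and Ikbkb. The 250 bases before each start were searched on both strands for the NF-kB consensus of 10 bases, overlapping matches included. It was present in 6 of the 8 windows and in 4 of the 5 genes, Rela being the exception, against 7.3% of 32851 windows of the same length over all genes. A looser core of the same length was in 8 of the 8 windows and in 45.8% of all windows. The windows of these genes had a median G+C content of 64.6%, against 52.4% over all windows, and the part of base composition in the matches was not tested. Capitals mark the matches below, and a match describes the letters only, not binding. The windows of Nfkbia (chr12:55492648-55492897, minus strand, 250 bases) and Rel (chr11:23770971-23771219, minus strand, 249 bases) are given whole, since they had the largest positive and the largest negative fold change of the 9.
Nfkbia: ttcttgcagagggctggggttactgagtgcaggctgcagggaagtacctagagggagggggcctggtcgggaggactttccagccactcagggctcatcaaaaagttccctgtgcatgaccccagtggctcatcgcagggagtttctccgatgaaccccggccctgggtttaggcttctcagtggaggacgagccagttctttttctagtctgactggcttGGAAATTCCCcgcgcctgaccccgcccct
Rel: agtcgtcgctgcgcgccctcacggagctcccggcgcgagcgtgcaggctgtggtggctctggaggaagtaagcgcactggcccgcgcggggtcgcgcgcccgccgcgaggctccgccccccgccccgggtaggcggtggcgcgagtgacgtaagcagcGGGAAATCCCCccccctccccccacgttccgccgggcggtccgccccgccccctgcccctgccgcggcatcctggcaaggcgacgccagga
The match begins 29 bases before the start of Nfkbia and 92 bases before that of Rel. For Tnfaip3 (minus strand) and Nfkb2 (plus strand) each match is given with its flanks.
Tnfaip3, chr10:19015516-19015545: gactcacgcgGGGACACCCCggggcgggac
Tnfaip3, chr10:19015411-19015432: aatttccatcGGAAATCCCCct
Nfkb2, chr19:46304689-46304717: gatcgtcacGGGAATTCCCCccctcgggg
Nfkb2, chr19:46304716-46304736: ggggccgaaaGGGGCTTTCCc
Nfkb2, chr19:46305449-46305478: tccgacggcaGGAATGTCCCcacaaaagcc
Nfkb2, chr19:46305695-46305724: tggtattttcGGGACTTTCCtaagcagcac
The matches lie 125 and 12 bases before one of the RefSeq starts of Tnfaip3, which falls inside the gene as placed by the files, and 110 of the 250 bases of that window are exonic. For Nfkb2 they lie 39 and 11 bases before the most upstream start, 236 before the next and 225 before the most downstream. In that order of starts, 250, 0 and 234 of the 250 bases of the window are exonic. All but the most upstream of these starts fall inside the gene as placed by the files. The counts of windows with a match given above include windows with exonic bases.

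Total counts were 16770162 and 14645187 in cKO replicates 1 and 2, and 15855913 and 14973059 in WT replicates 1 and 2. Lag3, the deleted gene, had 595 and 257 counts in the cKO libraries and 6064 and 10007 in the WT libraries, lower in both cKO libraries as their label says (log2 fold change -4.35, standard error 0.52). Its adjusted p was 0.9997 with edgeR's quasi-likelihood test and 1.46e-20 with DESeq2, so even the deleted gene did not pass the first of these. cKO replicate 2 stood apart: it had counts for 12787 genes, against 14840 to 15899 in the other libraries, and its log2 CPM correlated with theirs at 0.783 to 0.802 across genes, which are not independent replicates, where the others correlated with each other at 0.872 to 0.91. Of the 8923 genes with at least 60 counts in each of the other 3 libraries, 291 had at most 1 count in cKO replicate 2, and the same measure gave 7 to 13 genes for each of the other libraries. The Y-linked gene Ddx3y had 1795 and 0 counts in the cKO libraries against 1485 and 1306 in WT. Xist had 117 and 4355 counts in cKO against 0 and 0 in WT. cKO replicate 2 differs from the rest in this respect too, and cKO replicate 1 had counts of both genes. Sex-linked transcripts were thus uneven between the groups, and the part of sex in other differences was not tested. All 12 microglial markers were detected in every library, and their summed level was 30296 and 28234 CPM in cKO against 28900 and 32035 CPM in WT. Single markers differed in direction, with 3 of the 12 above both WT libraries and 3 below, against 15.8% and 20.0% of all genes. Tmem119, named after its values were seen, was at 773.2 and 1172 CPM in cKO against 380.9 and 540.9 CPM in WT. Cx3cr1, the fractalkine receptor gene, was at 3404 and 3034 CPM in cKO against 6443 and 6554 CPM in WT (log2 fold change -1.01, adjusted p = 0.9997 with edgeR and 4.08e-05 with DESeq2). In bulk RNA, fewer cells of a type and less RNA per cell cannot be told apart. The driver and the loss of Lag3 cannot be told apart either, and the part of each in the Cx3cr1 level was not tested.

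No member of the NF-kB set passed the test of cKO against WT, and the subunits and inhibitors did not move as a block. In both cKO libraries Nfkbia and Nfkbiz exceeded both WT libraries, Rel and Tnfaip3 lay below them, and the groups overlapped for Nfkb1, Nfkb2, Rela, Relb and Ikbkb. Nfkbia had the largest positive log2 fold change, 0.77 with a standard error of 0.35, and Rel the largest negative one, -0.68 with a standard error of 0.31. By edgeR's quasi-likelihood test with Benjamini-Hochberg adjustment over 13086 genes, 0 of the 9 had an adjusted p under 0.05 (each had adjusted p = 0.9997), as had 0.0% of all genes. At an unadjusted p under 0.05 there were 0 of the 9, against 4.65% of all genes, and DESeq2 called 0 of the 9 against 0.387% of all genes, with 1 of the 9 (Nfkbia) at an unadjusted p under 0.05 against 4.86%. The fitted change was positive for 5 of the 9, against 48.2% of all genes. The groups did not overlap for 4 of the 9 members, close to the 35.9% of all genes tested, so this count is near the background. In FPKM it was 5 of the 9 against 35.8%, and with cKO replicate 1 as the only cKO library 9 of the 9 against 73.0%.

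**Figure D1:**
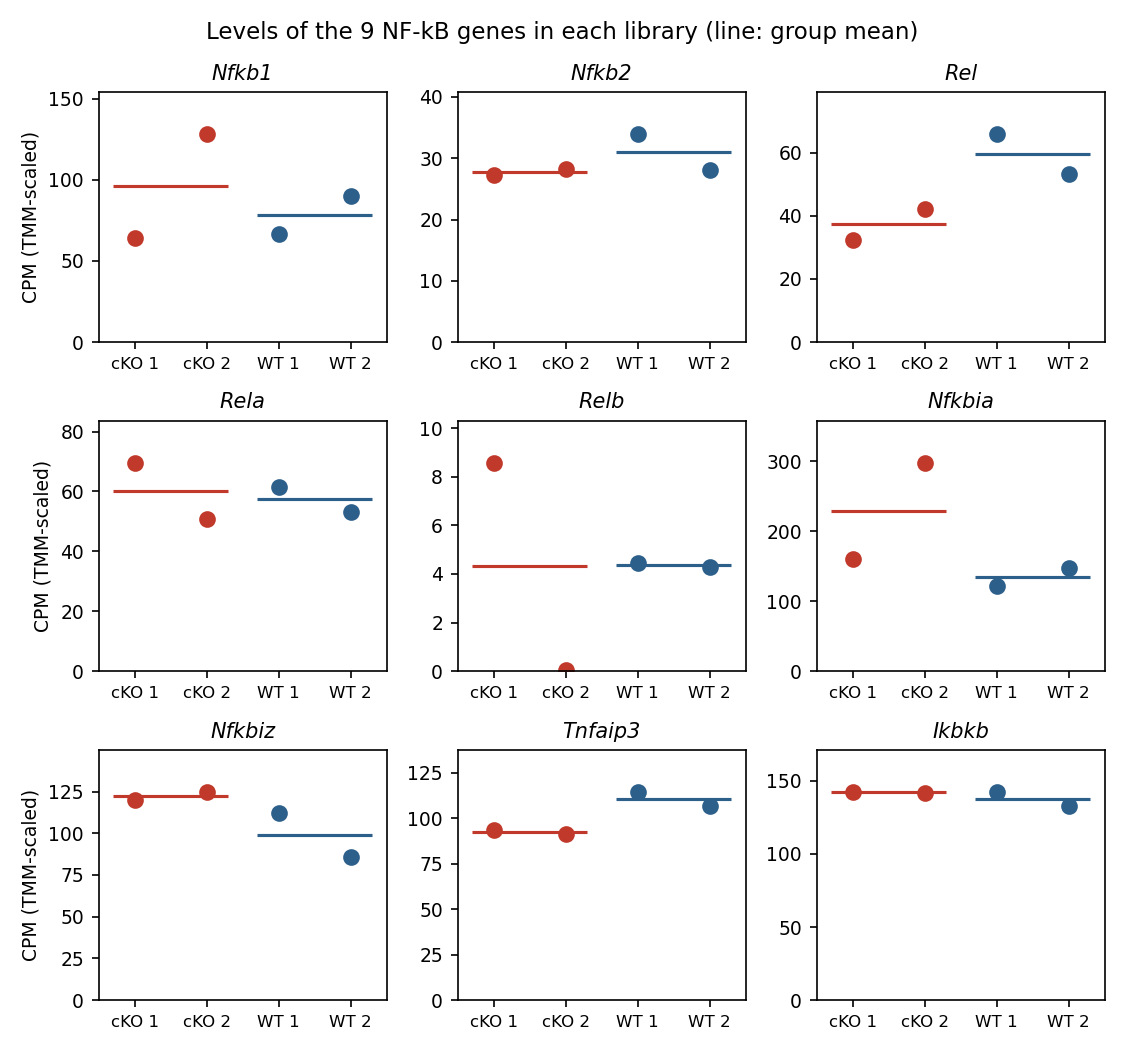
Level of each of the 9 genes in CPM (TMM-scaled, y axis from 0) in the cKO and WT libraries; points are libraries and lines are group means. Rel and Tnfaip3 lie below WT in both cKO libraries, Nfkbia and Nfkbiz lie above, and Relb is near 0 in cKO replicate 2 only.

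Rel (ENSMUSG00000020275, chromosome 11, 23736847 to 23770970, minus strand) encodes c-Rel, a subunit with a transactivation domain that is used mostly in immune cells. It had 546 and 633 counts in the cKO libraries and 1035 and 781 counts in the WT libraries. These are 32.5 and 42.2 CPM in cKO and 66.0 and 53.3 CPM in WT, so that even the higher cKO library lay under the lower WT library. The means were 37.4 ± 6.85 CPM in cKO and 59.7 ± 8.98 CPM in WT (SD, n = 2 each), a difference larger than either spread. With edgeR the unadjusted p was 0.0833 and the adjusted p = 0.9997. Over leaving out each library the log2 fold change of Rel stayed between -0.88 and -0.50.

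Rela (ENSMUSG00000024927, chromosome 19, 5637483 to 5648130, plus strand) encodes p65, the main transactivating subunit of the canonical pathway. It had 1168 and 762 counts in cKO and 962 and 781 counts in WT. The cKO libraries, at 69.6 and 50.8 CPM, enclosed the WT libraries at 61.4 and 53.3 CPM. In edgeR the log2 fold change was 0.07 (standard error 0.29, adjusted p = 0.9997).

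Nfkb1 (ENSMUSG00000028163, chromosome 3, 135584655 to 135691547, minus strand) encodes p105, the precursor of the DNA-binding subunit p50. Its counts were 1076 and 1926 in cKO and 1045 and 1319 in WT. On the CPM scale these are 64.1 and 128.4 in cKO, the lowest and the highest of the 4 libraries, against 66.6 and 90.0 in WT. The log2 fold change of 0.30 (standard error 0.41, edgeR adjusted p = 0.9997) came from cKO replicate 2 and was -0.29 without it.

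Nfkb2 (ENSMUSG00000025225, chromosome 19, 46304737 to 46312090, plus strand) encodes p100, the precursor of p52, which serves the non-canonical arm of the pathway. Counts were 458 and 423 in cKO and 533 and 410 in WT, or 27.3 and 28.2 CPM in cKO and 34.0 and 28.0 CPM in WT. WT replicate 1 alone was higher than the rest, and the log2 fold change was -0.16 (standard error 0.33). Nfkb2 is also the only member whose exons overlap other annotated genes, Psd and AC114539.1 on the opposite strand, over 830 bases in all, and the sources used here do not say whether the counting used strand.

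Relb (ENSMUSG00000002983, chromosome 7, 19606217 to 19629438, minus strand) encodes the partner of p52 in the non-canonical dimer. It had 144 and 1 counts in cKO replicates 1 and 2, against 70 and 63 in WT replicates 1 and 2. The libraries of the cKO group thus lay on opposite sides of WT, at 8.58 and 0.0667 CPM in cKO and 4.46 and 4.30 CPM in WT. The group means, 4.32 ± 6.02 CPM in cKO and 4.38 ± 0.116 CPM in WT (SD, n = 2 each), were nearly equal because these deviations cancelled. In cKO replicate 2 the ratio of Relb to cKO replicate 1 was 0.00777, with a 95% exact binomial interval of 0.000196 to 0.044 that covers counting error only. Against WT replicates 1 and 2 the ratio was 0.0149 (0.000373 to 0.086) and 0.0155 (0.000386 to 0.0896), so the near absence lies outside counting error. Relb is among the 291 genes described above that were close to absent from cKO replicate 2 and well counted elsewhere, and the part of that library's narrower gene detection was not tested.

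Nfkbia (ENSMUSG00000021025, chromosome 12, 55489410 to 55492647, minus strand) encodes IkB-alpha, the inhibitor that holds dimers of p65 and p50 in the cytoplasm and is itself rapidly resynthesised on NF-kB activation. It had 2699 and 4465 counts in cKO and 1907 and 2158 counts in WT. The levels were 160.7 and 297.7 CPM in cKO and 121.6 and 147.3 CPM in WT, so the lower cKO library was only slightly above the higher WT library while cKO replicate 2 was far above. The means were 229.2 ± 96.8 CPM in cKO and 134.5 ± 18.2 CPM in WT (SD, n = 2 each), a difference smaller than the spread inside the cKO group. Unadjusted p was 0.0813 with edgeR and 0.0347 with DESeq2, and the adjusted p = 0.9997 and 0.69. Without cKO replicate 2 the log2 fold change was 0.26, and without cKO replicate 1 it was 1.15 with adjusted p = 0.048, in an edgeR fit that takes its spread from WT alone, assumes the same spread for the single cKO library, and called 748 genes.

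Nfkbiz (ENSMUSG00000035356, chromosome 16, 55811375 to 55838899, minus strand) encodes IkB-zeta, a nuclear member of the IkB family that is induced by IL-1 and Toll-like receptor signals and helps a second wave of target genes. Its counts were 2015 and 1873 in cKO and 1763 and 1255 in WT. The cKO libraries were close together at 120.0 and 124.9 CPM, above both the 112.4 and the 85.7 CPM of WT. The log2 fold change was 0.31 (standard error 0.23, edgeR unadjusted p 0.244, adjusted p = 0.9997), and it was 0.11 without WT replicate 2.

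Tnfaip3 (ENSMUSG00000019850, chromosome 10, 19000910 to 19015657, minus strand) encodes A20, a ubiquitin-editing enzyme that shuts off signalling upstream of the IKK complex. Counts were 1570 and 1369 in cKO and 1799 and 1563 in WT. Both cKO libraries, at 93.5 and 91.3 CPM, lay below the 114.7 and 106.7 CPM of WT, opposite to the other feedback inhibitor Nfkbia. The difference was small, -0.26 on the log2 scale (standard error 0.20, edgeR unadjusted p 0.25, adjusted p = 0.9997), and it kept its direction over leaving out each library, from -0.32 to -0.22.

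Ikbkb (ENSMUSG00000031537, chromosome 8, 22659212 to 22706589, minus strand) encodes IKK-beta, the kinase that phosphorylates IkB-alpha in the canonical arm. It was the steadiest of the 9 genes, with 2395 and 2127 counts in cKO and 2232 and 1946 counts in WT. The levels were 142.6 and 141.8 CPM in cKO and 142.3 and 132.8 CPM in WT, and the groups overlapped. In FPKM the cKO libraries, at 7.49 and 7.61, lay above WT at 7.38 and 6.81, so the position of this gene depends on the scaling. The log2 fold change was 0.05 (standard error 0.18, edgeR adjusted p = 0.9997), which does not show that the levels were equal.

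**Figure D2:**
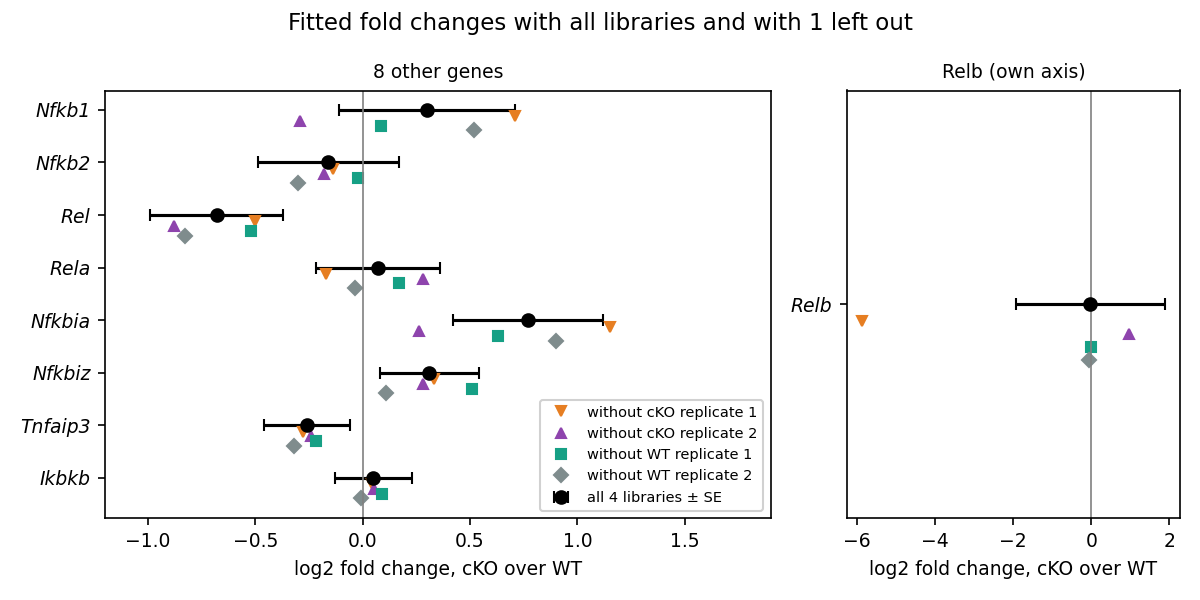
Log2 fold change of cKO over WT (x axis) for each gene, fitted by edgeR with all 4 libraries (black, bars ± SE) and with each library left out (coloured markers); Relb has an axis of its own. Rel, Nfkb2 and Tnfaip3 stay below 0 and Nfkbia and Nfkbiz above 0 in every fit, whereas Nfkb1, Rela, Relb and Ikbkb change sign with the library that is left out.

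Levels can be set against each other per length. The length that FPKM implies was within 0.01 kb of the GENCODE M21 exon union, the summed length of all annotated exons, for 7 of the 9 genes. The exceptions were Rela, at 2.72 kb against a union of 3.07 kb and a longest coding transcript of 2.72 kb, and Nfkb2, at 3.29 kb against a union of 4.58 kb. Nfkbia was the most abundant of the 9 in every library, at 100 and 189.4 FPKM in cKO and 74.7 and 89.5 FPKM in WT, and ranked 394 among 21044 genes by mean FPKM. Rela and Nfkbiz followed at 16.7 to 25.6 FPKM and traded places between libraries, then Tnfaip3 at 12.9 to 15.7 FPKM. Nfkb1, Nfkb2, Rel and Ikbkb, between 4.36 and 10.9 FPKM, had no single order across the libraries, and Relb was lowest in each, at 2.21 and 0.0176 FPKM in cKO and 1.14 and 1.08 FPKM in WT. The exon union of Ikbkb is 19.08 kb and its longest coding transcript 3.98 kb, and for Nfkb1 these are 12.06 and 4.12 kb. FPKM therefore understates the level of these 2 genes relative to the others if the coding transcript is the one expressed.

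The 5 subunits summed to nearly the same level in both groups while their mix differed between libraries. The sum was 45.8 and 44.6 FPKM in cKO and 47.9 and 42.9 FPKM in WT. Rela made up 55.9% and 42.9% of it in cKO and 46.6% and 44.8% in WT, so Rela was the largest share in every library. Rel made up 9.51% and 13% in cKO and 18.3% and 16.3% in WT, and no other subunit's share in FPKM was free of overlap between the groups. Its difference was -6.03 percentage points (exact permutation test, two-sided, p = 0.333, the smallest that 2 libraries against 2 allow). Nfkb1 ranged from 11.6% to 24.4% in cKO and from 11.4% to 17.0% in WT, and Relb held 4.82% and 0.0394% in cKO against 2.37% and 2.52% in WT. With coding transcript lengths in place of those behind FPKM, Nfkb1 took 27.6% and 49.6% in cKO and 27.7% and 37.8% in WT, and Rela 45.3% and 29.7% in cKO and 38.6% and 33.9% in WT. On that scale Nfkb1 exceeded Rela in cKO replicate 2 and in WT replicate 2, so the order of these subunits depends on the length used. The Nfkb2 share also separated the groups there, at 12.6% and 11.7% in cKO and 15.1% and 12.6% in WT (exact permutation p = 0.333), with cKO replicate 1 and WT replicate 2 equal to the digits shown.

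A ratio inside a library does not depend on how libraries are scaled. Nfkbia stood at 2.18 and 4.24 times the subunit sum in cKO and at 1.56 and 2.09 times in WT, with no overlap, although cKO replicate 1 and WT replicate 2 were close together. Nfkbiz stood at 0.522 and 0.571 times the sum in cKO, above 0.463 and 0.389 times in WT. Tnfaip3 was lower per subunit in cKO, at 0.283 and 0.29 times against 0.328 and 0.337 times in WT. Ikbkb was at 0.163 and 0.17 times in cKO and 0.154 and 0.159 times in WT, a log2 difference of 0.09 that became 0.01 with coding transcript lengths. On that scale the Ikbkb ratios overlapped, at 0.635 and 0.567 times in cKO and 0.612 and 0.577 times in WT. They overlapped in CPM as well. Each of these 4 ratios separated the groups in FPKM, and each had an exact two-sided permutation p = 0.333, which is the smallest possible here. The ratios share the same subunit sum, so they are not independent of each other.

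**Figure D3:**
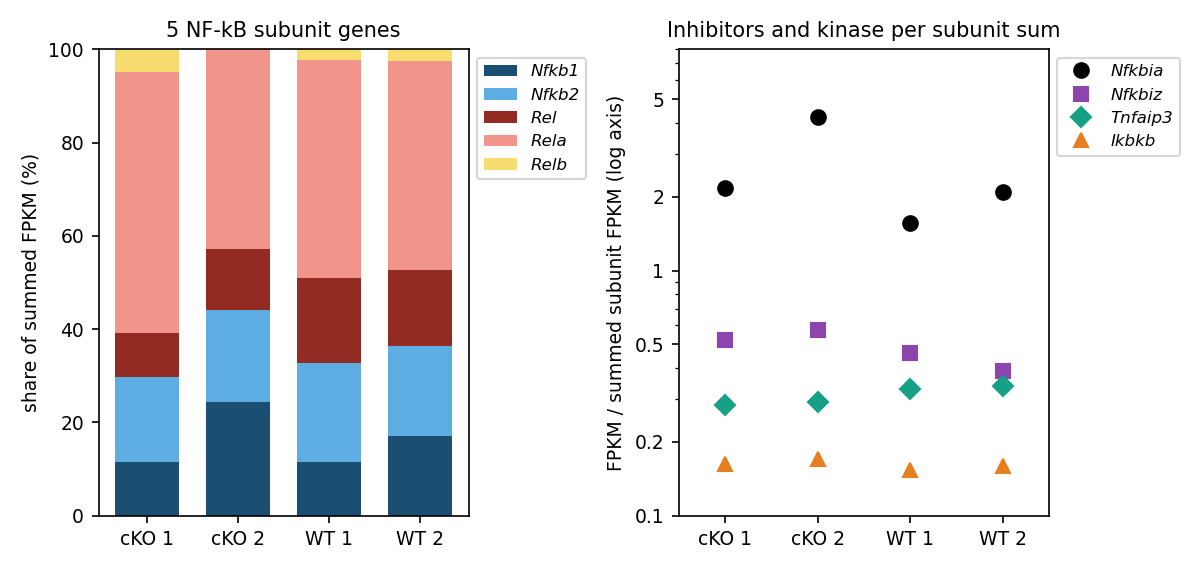
Left, share of each subunit gene in the summed FPKM of the 5 subunits (%, bars from 0) in each library; right, FPKM of the inhibitor and kinase genes divided by that sum (log axis). The Rel share is smaller in both cKO libraries (9.51% and 13%) than in WT (18.3% and 16.3%), and Nfkbia per subunit is highest in cKO replicate 2 (4.24).

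The authors compared each cKO library with each WT library, and every gene called in the authors' deposited tables had a fold of at least 2. These tables share libraries, so their values are given side by side. For Nfkbia the authors' deposited table gave log2 fold changes of 0.42 and 0.16 for cKO replicate 1 over WT replicates 1 and 2, and of 1.34 and 1.08 for cKO replicate 2, and it was called higher in the last 2 comparisons. For Relb the authors' deposited tables gave 0.96 and 1.03 for cKO replicate 1 and -6.01 and -5.95 for cKO replicate 2, so this gene was called higher in 1 comparison and lower in 2. For Rel the authors' deposited tables gave -1.0 and -0.68 for cKO replicate 1 and -0.59 and -0.27 for cKO replicate 2, and only the first was called. No other member was called, so 1, 1, 2 and 2 of the 9 members were called in the 4 tables, where 36.1%, 34.8%, 46.8% and 48.8% of all listed genes were. By direction, cKO replicate 1 over WT replicate 1 called 0 members higher and 1 lower (20.3% and 15.8% of listed genes), and over WT replicate 2 it called 1 higher and 0 lower (17.2% and 17.6%). cKO replicate 2 called 1 higher and 1 lower over WT replicate 1 (18.1% and 28.7%) and again over WT replicate 2 (17.1% and 31.7%). The sources used here do not name the test behind those calls, and 82.7% of the genes in the authors' deposited tables have an adjusted p below the unadjusted one.

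Around the members, 95 further genes of the pathway were taken as 5 lists of ligands, receptors, relay proteins and kinases, other inhibitors and other targets, and 77 of them could be tested. None passed edgeR (adjusted p = 0.9997 for each of those named below), and 6 had an unadjusted p under 0.05. Both cKO libraries lay above both WT libraries for 17 of the 77 and below for 9, which is 22.1% and 11.7% of them, where all genes gave 15.8% above and 20.0% below. Ltb, Tab3 and Il6 are among the 17. Their WT libraries alone would not have passed the expression filter, which favoured a place above WT. The median log2 fold change over the 77 was 0.03, against -0.03 over all genes tested.

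No ligand gene passed the test. Of 12 listed, 6 were tested, 5 of these lay above both WT libraries, against 15.8% of all genes, and their list had a median log2 fold change of 1.35. Tnf, the founding ligand of its family, was at 56.9 and 116.4 CPM in cKO and 18.2 and 33.2 CPM in WT. Il1a was at 145.2 and 219.1 CPM in cKO and 89.4 and 90.7 CPM in WT. Il1b, another interleukin-1 gene, was at 24.5 and 24.6 CPM in cKO and 7.08 and 10 CPM in WT. Il18, an inflammasome-processed cytokine, was at 19.2 and 41.7 CPM in cKO and 13.7 and 13.3 CPM in WT. The fifth gene, Ltb, had 14 and 27 counts in cKO and 9 and 1 in WT, and is named because it completes the count. Ltb passed the expression filter only through its cKO libraries, so its place above WT was favoured by the filter and is no support. With the 4 ligands at a mean of at least 5 CPM, which leaves Ltb out, the median was 1.36. The sixth, Tnfsf12, named for the same reason, overlapped, at 0.715 and 2.27 CPM in cKO and 1.28 and 1.37 CPM in WT. The unadjusted edgeR p was 0.0213 for Tnf, 0.014 for Il1a, 0.0245 for Il1b and 0.0769 for Il18. Without cKO replicate 2 the median was 0.92, with cKO replicate 1 above both WT libraries for 5 of the 6 genes, against 36.0% of all genes. Ltb is again 1 of the 5 and enters that median, and it is no support here either. In that fit the log2 fold changes of Tnf, Il1a, Il1b and Il18 were 1.15, 0.69, 1.52 and 0.51. The sum of 12 neutrophil and monocyte markers, which belong to cells that also make these cytokines, was highest in cKO replicate 2. It was 25.2 and 147.1 CPM in cKO and 34.1 and 13.8 CPM in WT. Single markers differed, and those given here are named after their values were seen. Ngp, a neutrophil granule gene, had 37 and 626 counts in cKO and 0 and 5 in WT. S100a8 was also highest in cKO replicate 2, at 2.74 and 13.8 CPM in cKO and 4.59 and 1.77 CPM in WT. S100a9, at 1.43 and 3.27 CPM in cKO and 3.44 and 0.956 CPM in WT, was highest in WT replicate 1. The same held for Ly6c2, at 0.536 and 2.47 CPM in cKO and 4.15 and 1.09 CPM in WT. Of the 7 markers tested, 3 lay above both WT libraries and 0 below, against 15.8% and 20.0% of all genes. Ngp is among these 3. Like Ltb, it passed the expression filter only through its cKO libraries, so its place above WT is no support. Elane and Mpo, not among those tested, were at 0 in both cKO libraries and in WT replicate 2. The part of such cells in the ligand levels was not tested.

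The groups overlapped for every receptor tested. Of these 10 genes, 0 had both cKO libraries above or both below WT, against 35.9% of all genes tested. The median log2 fold change was -0.20. Tnfrsf1a, the main TNF receptor, was at 106.4 and 63.5 CPM in cKO and 104.4 and 123.0 CPM in WT. Tlr4, the receptor of lipopolysaccharide, was at 189.6 and 86.0 CPM in cKO and 196.2 and 150.2 CPM in WT, with cKO replicate 2 the lowest for both genes. Tlr2, a receptor of bacterial lipoproteins, was at 257.4 and 220.2 CPM in cKO and 262.2 and 253.9 CPM in WT, and Ltbr, the lymphotoxin-beta receptor, at 47.7 and 44.9 CPM in cKO and 46.9 and 58.8 CPM in WT. Leaving out cKO replicate 2 gave a median of 0.21, and leaving out cKO replicate 1 gave -0.86.

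Among 26 relay proteins and kinases, 3 genes (11.5%) lay above both WT libraries and 7 (26.9%) below, where all genes tested gave 15.8% and 20.0%. Their median log2 fold change was -0.16. Myd88, the adaptor of most Toll-like receptors and of the IL-1 receptor, was at 120.9 and 122.2 CPM in cKO and 73.2 and 81.6 CPM in WT, and its log2 fold change of 0.65 (standard error 0.20, edgeR unadjusted p 0.0266, adjusted p = 0.9997) was 0.64 when cKO replicate 2 was left out and 0.66 when cKO replicate 1 was. Traf6, the ubiquitin ligase downstream of Myd88, went the other way at 26.7 and 26.1 CPM in cKO and 46.9 and 38.9 CPM in WT. Card9, an adaptor used by fungal pattern receptors, was at 14.5 and 26.7 CPM in cKO and 45.9 and 33.2 CPM in WT. Tab3, a regulatory subunit of the TAK1 kinase complex, had 95 and 446 counts in cKO and 43 and 1 counts in WT, so its libraries differed widely inside each group. The WT libraries of Tab3 alone would not have passed the expression filter, so its place above WT was favoured by the filter and is no support. Chuk and Ikbkg, which with Ikbkb form the IKK complex and are named for that reason after their values were seen, had 15.9 and 13.5 CPM in cKO against 18.4 and 17.3 CPM in WT for Chuk, and 92.4 and 77.3 CPM in cKO against 80.1 and 89.1 CPM in WT for Ikbkg. Both cKO libraries lay below WT for Chuk, and the cKO libraries lay on opposite sides of WT for Ikbkg.

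Of 19 other inhibitors tested, 3 (15.8%) lay above both WT libraries and 1 (5.26%) below, where all genes tested gave 15.8% and 20.0%. Their median log2 fold change was 0.20. Nfkbie, the gene of IkB-epsilon, was at 33.5 and 35.5 CPM in cKO and 13.6 and 26.1 CPM in WT. Tnip1, which encodes a partner of A20, was at 33.3 and 61.0 CPM in cKO and 29.2 and 24.2 CPM in WT. Pdlim2, a ubiquitin ligase for nuclear p65, was at 14.2 and 12.5 CPM in cKO and 24.7 and 19.5 CPM in WT. Traf3, a brake on the non-canonical arm, was at 7.68 and 71.5 CPM in cKO and 20.7 and 10.4 CPM in WT, and its cKO libraries lay on opposite sides of WT, as those of Relb did but in the reverse sense. The median was -0.16 without cKO replicate 2.

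Of 16 other target genes tested, 6 (37.5%) lay above both WT libraries and 1 (6.25%) below, where all genes tested gave 15.8% and 20.0%. Among the 6 is Il6, with 46 and 71 counts in cKO and 13 and 8 in WT, named after its values were seen. Its WT libraries alone would not have passed the expression filter, so its place above WT was favoured by the filter and is no support. Their median log2 fold change was 0.13. Ier3, an immediate early gene linked to cell survival, was at 172.6 and 170.7 CPM in cKO and 93.0 and 118.8 CPM in WT. The chemokine gene Ccl2 was at 320.5 and 748.9 CPM in cKO and 242.2 and 241.1 CPM in WT, and Plau, the urokinase gene, at 24.0 and 28.1 CPM in cKO and 6.89 and 14.8 CPM in WT. Cxcl10, which interferons also induce, was at 1.37 and 27.8 CPM in cKO and 2.17 and 1.02 CPM in WT, high in cKO replicate 2 alone. Csf1, the growth factor gene that was the exception below WT and is named for that after its values were seen, was at 514.9 and 305.4 CPM in cKO and 636.4 and 585.2 CPM in WT. Unadjusted edgeR p was 0.0244 for Ier3 and 0.0463 for Ccl2.

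**Figure D4:**
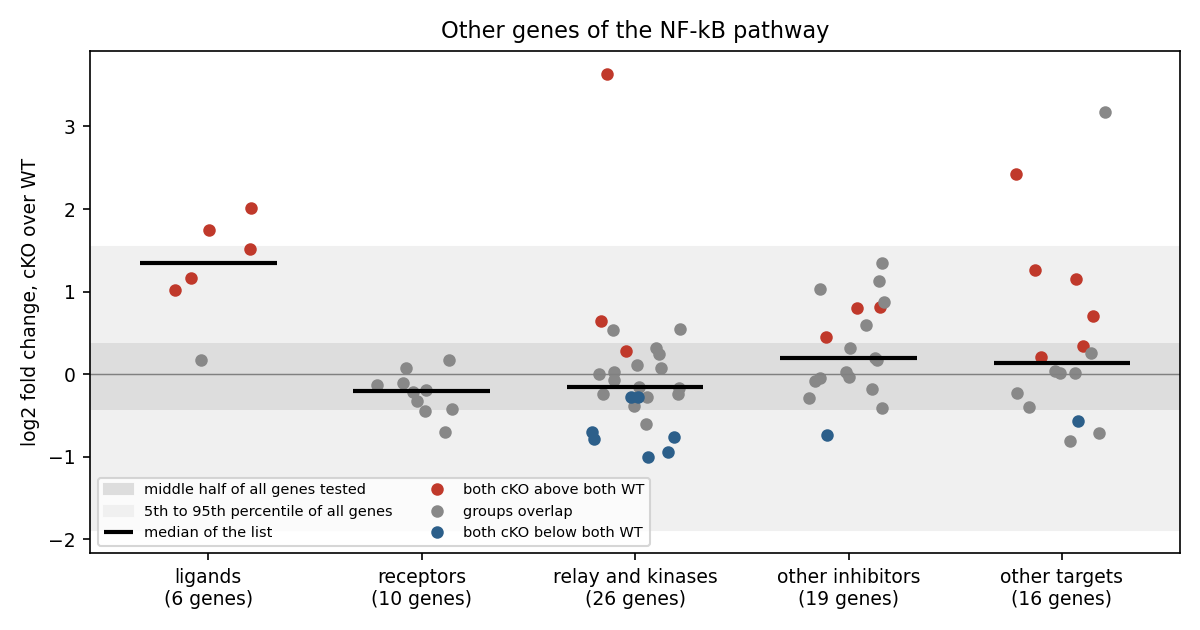
Log2 fold change of cKO over WT (y axis) for the 77 tested genes of the 5 pathway lists; each point is a gene, coloured by whether both cKO libraries lie above or below both WT libraries, black lines are list medians and grey bands are the spread over all genes tested. The ligands have the highest median (1.35). Of the 10 receptors, 0 have both cKO libraries above or both below WT, against 35.9% of all genes tested.

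The pattern of each member over the 4 libraries was set against the other members and the 77 list genes by the root mean square difference of centred log2 CPM. Nfkb1 and Nfkbia were nearest to each other among the members that varied most, 0.25 log2 units apart, and both were highest in cKO replicate 2 and lowest in cKO replicate 1 or WT replicate 1. Birc3, a ubiquitin ligase of the TNF receptor complex and itself a target of NF-kB, was nearest to Nfkb1 at 0.104, with 30.8 and 68.6 CPM in cKO and 37.4 and 42.5 CPM in WT. Tnip1 was nearest to Nfkbia at 0.194, and Traf6 to Rel at 0.145. Tnfaip3 and Nfkb2 were nearest to each other at 0.087, over spans of only 0.33 and 0.32 log2 units. Relb had no close member, the nearest being Rela at 2.003, and its nearest list gene was the prostaglandin synthase gene Ptgs2 at 0.409, with 47 and 0 counts in cKO and 29 and 40 in WT. The remaining nearest list genes were Tlr2 for Nfkb2, Rnf11 for Rela, Icam1 for Nfkbiz, Chuk for Tnfaip3 and Rbck1 for Ikbkb, at 0.055 to 0.128. With 4 libraries these are descriptions of likeness and nothing more.

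Isolating cells from tissue can itself induce immediate early genes, and 13 of the 14 genes listed for this response had counts. They summed to 7098 and 9287 CPM in cKO and 6514 and 8022 CPM in WT, with cKO replicate 2 the highest and WT replicate 1 the lowest, as for Nfkbia. In this sum cKO replicate 1 lay between the WT libraries, whereas for Nfkbia it lay above both. Of the 11 tested, 3 lay above both WT libraries and 2 below, against 15.8% and 20.0% of all genes. Fos was at 1419 and 1537 CPM in cKO and 1377 and 1534 CPM in WT, and Egr1 at 1386 and 2029 CPM in cKO and 1169 and 1507 CPM in WT. Ier2 was at 225.1 and 884.5 CPM in cKO and 387.9 and 551.8 CPM in WT, on both sides of WT. The groups overlapped for Fos and Egr1 too. Jun, at 825.3 and 911.0 CPM in cKO and 547.6 and 800.3 CPM in WT, lay above both WT libraries. These genes are named after their values were seen. Astrocyte markers summed to 246.2 and 525.1 CPM in cKO and 226.1 and 185.7 CPM in WT. Both cKO sums were above WT, and cKO replicate 2 was again the highest. Of the 10 astrocyte markers tested, 6 lay above both WT libraries and 0 below, against 15.8% and 20.0% of all genes. Their median log2 fold change was 1.55, while S100b, Gjb6 and Slc4a4 of the 12 were at 0 in cKO replicate 2. The sums of border macrophage markers, 491.2 and 529.4 CPM in cKO and 478.9 and 530.8 CPM in WT, overlapped between the groups. Whether dissociation or other cells contributed to the levels of the NF-kB genes was not tested.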

How the data were processed

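Read counts per gene were taken from 4 tables deposited by the authors, each of 1 cKO and 1 WT library, per the file headers, and FPKM from 1 table of all libraries that the authors deposited. Per the submitters' processing notes the tools were HTSeq 0.6.0, TopHat2 2.0.12 and Bowtie2 2.2.3, and the build mm9; strand and annotation are not given in the sources used here. Gene positions matched GRCm38 instead (92.1% of 21008 genes shared with GENCODE M21), so they are printed as GRCm38. The authors' deposited tables also hold a normalized signal (not used), p-values and a fold as ratio and log2.

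Counts were joined for 18459 genes. Of 73836 values, 4315 missing from the tables, at most 4 counts each, were recovered from FPKM, and 100.0% of them were whole within 1e-06. The test was edgeR 4.0.16 in R 4.3.3 (TMM, filterByExpr, quasi-likelihood F test, cKO against WT), adjusted over 13086 genes; SEs come from the F statistic. CPM values are TMM-scaled. Alternatives were DESeq2 1.42.0, limma 3.58.1 on log2(FPKM + 1) and log2(FPKM + 0.1), other scalings and filters, a replicate block and leaving out each library. Scripts were tested on simulated data. Intervals cover counting error only. Up to 4 genes per list were named by the smallest unadjusted p at a mean of at least 1 CPM, besides members and nearest genes. The members and lists were chosen with earlier results of these data known.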

Additional observations from a re-analysis of the deposited data

How the results depend on the processing

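The number of genes called, 0 with all libraries, was 52 with DESeq2 and 0 under the other scalings, filters, limma fits and the replicate block, and it was 0 to 748 over leaving out each library, the highest without cKO replicate 1. The number of members called was 0 to 1 over leaving out each library, the call being Nfkbia without cKO replicate 1, and 0 under every other alternative. Over leaving out each library the log2 fold change was -0.29 to 0.71 for Nfkb1, -0.17 to 0.28 for Rela, -5.87 to 0.97 for Relb and -0.0091 to 0.089 for Ikbkb, and Relb was at 0.0079 with library totals only; Nfkb2, Rel, Nfkbia, Nfkbiz and Tnfaip3 kept their direction. Medians of the lists were 0.92 to 1.57 for ligands, -0.86 to 0.21 for receptors, -0.22 to 0.041 for relay proteins and kinases (-0.24 with the replicate block), -0.16 to 0.25 for other inhibitors and 0.092 to 0.23 for other targets (0.22 at a mean of at least 5 CPM). The difference in subunit share, in percentage points, was -2.61 to 10.2 for Nfkb1, -2.79 to 10.2 for Rela and -2.41 to 2.37 for Relb, the last being 0.237 with CPM and 0.0493 with coding transcript lengths, an alternative added after the data were seen. With cKO replicate 1 alone, also added later, 9 members lay outside the WT range, where 73.0% of all genes did; the cause of the other changes was not tested. The labels do not tie libraries of equal number to one source, and the deviations of such libraries had a correlation of -0.02 across genes; the replicate block left 0 genes called, with 252 rather than 608 at an unadjusted p under 0.05, and moved Relb to -2.14. With 1 count in a library, as for Relb, a fitted fold change depends on the prior count.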
